A study of Mus with 8 samples.

Results

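Messenger RNA of 10 CC chemokines was followed in mouse bone marrow monocytes grown in stiff hydrogels. The 10 were taken as a gene family, by their Ensembl IDs. The choice used no measured value as a criterion, but it was made with earlier results of these data known. The members are *Ccl2*, *Ccl7*, *Ccl12*, *Ccl8*, *Ccl3*, *Ccl4*, *Ccl5*, *Ccl6*, *Ccl9* and *Ccl24*. They are 10 of the 17640 IDs of the count table, and all 10 passed the filter on low counts that left 14785 IDs for testing. Cells came from C57BL/6 mice with a Jak2 V617F knock-in and Vav-iCre, or from control mice with Vav-iCre only, so both genotypes carried the Cre recombinase, which acts in blood-forming cells. Jak2 V617F is an activating mutation of a cytokine receptor kinase that drives myeloproliferative neoplasm. Cells of each genotype were held in an elastic or a viscous gel and sampled on day 3, with 2 libraries in each of the 4 groups. All 8 cultures received PGE2 (100 ng/mL), IL4 (200 ng/mL) and also GM-CSF (100 ng/mL), so every value below belongs to cells under these agents. The labels give no ages and do not say how many animals stood behind a library.

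Chemokines are small secreted proteins that draw leukocytes along a gradient by binding G protein-coupled receptors. The ligands of the receptor Ccr2, among them *Ccl2*, *Ccl7* and *Ccl12*, bring inflammatory monocytes out of the bone marrow and into tissue. *Ccl3*, *Ccl4* and *Ccl5* are made by activated macrophages and lymphocytes, and *Ccl6* and *Ccl9* are rodent chemokines of myeloid cells. *Ccl24* is best known as an attractant of eosinophils through Ccr3 and is made by macrophages exposed to IL-4.

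In the RefSeq table for GRCm38, 9 of the genes lie on chromosome 11 in a pair of groups, and *Ccl24* (ENSMUSG00000004814) lies on chromosome 5 at 135569935 to 135573123. The first group runs from 82035577 to 82116799 and holds *Ccl2* (ENSMUSG00000035385), *Ccl7* (ENSMUSG00000035373), *Ccl12* (ENSMUSG00000035352) and *Ccl8* (ENSMUSG00000009185), in that order. The second group starts 1410 kb further on, runs from 83525778 to 83664683, and holds *Ccl5* (ENSMUSG00000035042), *Ccl9* (ENSMUSG00000019122), *Ccl6* (ENSMUSG00000018927), *Ccl3* (ENSMUSG00000000982) and *Ccl4* (ENSMUSG00000018930). All 10 are protein coding. The gene spans of *Ccl3* and *Ccl4* overlap by 755 bp in this table. Whether this affects the division of counts between these genes was not tested.

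The libraries held 30632355 to 38408851 counts. Each title ends in a number that 1 elastic and 1 viscous library of a genotype share. The numbers are called J1 and J2 in Jak2 V617F cells and W1 and W2 in control cells, and what they mark is not stated in the labels. Nothing states that libraries came from separate animals, so every p-value below reflects the spread among libraries only, part of which may be technical. The W1 libraries stood apart from the W2 libraries over all IDs. The root mean square difference in log2 CPM (counts scaled to 1e+06 counts per library) was 0.556 between J1 and J2 in elastic gel and 0.683 in viscous gel, against 0.967 and 0.964 between W1 and W2. Because the other IDs carry no names, the cell type and the makeup of each library were not checked against marker genes. In bulk RNA, fewer cells of a type and less RNA per cell cannot be told apart.

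Together the 10 chemokines took up 0.501% to 0.883% of all counts of a library. The share was 0.725% and 0.729% in the J1 and J2 libraries in elastic gel, and 0.501% and 0.883% in viscous gel. In control cells it was 0.765% (W1) and 0.696% (W2) in elastic gel, and 0.650% and 0.562% in viscous gel. The family's total thus varied less than 2-fold, while single members varied from 1.98-fold (*Ccl9*) to 56.2-fold (*Ccl8*) between their lowest and highest library. All 10 members had a larger standard deviation of log2 CPM over the 8 libraries than the median ID (0.282), and 5 of the 10 (*Ccl8*, *Ccl6*, *Ccl3*, *Ccl4* and *Ccl12*) lay in the top 10% of all IDs. In 8 of 10 members the lowest or the highest library was a W1 library, and so it was in 71% of all IDs, a share not far from that of the members.

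**Figure D1:**
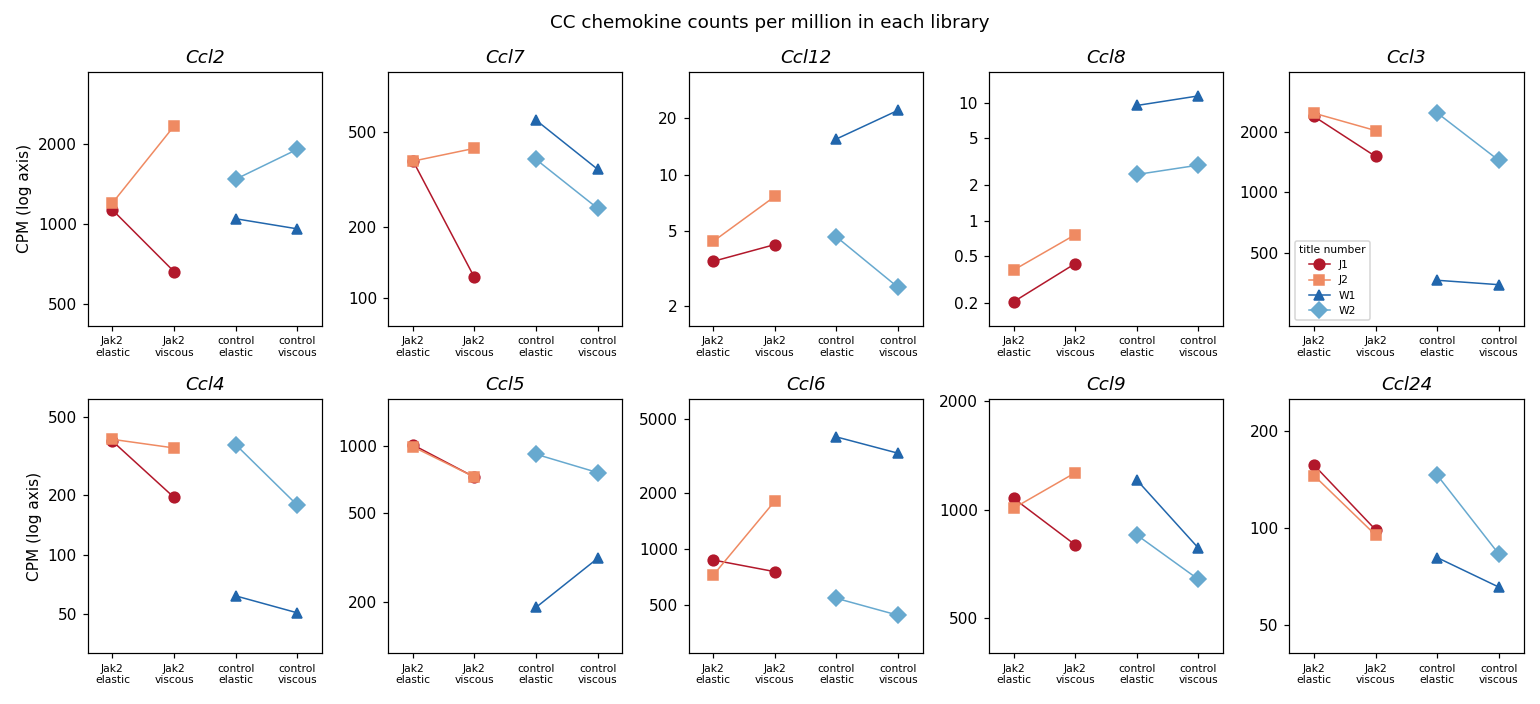
CPM of each chemokine (log axis) in the 4 groups of 2 libraries, with a line joining the elastic and the viscous library of a title number. *Ccl8* was below 1 CPM in all 4 Jak2 V617F libraries and above 2 CPM in all 4 control libraries, while *Ccl3*, *Ccl4* and *Ccl5* were lowest in the W1 libraries.

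*Ccl2*, the principal ligand of Ccr2, was counted in every library. It stood at 1134 and 1204 CPM (J1 and J2) in Jak2 V617F cells in elastic gel and at 664 and 2344 CPM in viscous gel. In control cells it stood at 1050 and 1479 CPM (W1 and W2) in elastic gel and at 962 and 1917 CPM in viscous gel. Both extremes were Jak2 V617F libraries in viscous gel, so the 2 replicates of that group spanned all other values. *Ccl7*, its neighbour and a further Ccr2 ligand, showed the same split, with 122 CPM in J1 and 428 CPM in J2 in viscous gel. The J1 and J2 libraries in elastic gel were close, at 380 and 378 CPM. In control cells *Ccl7* had 563 and 384 CPM (W1 and W2) in elastic gel and 349 and 239 CPM in viscous gel. The split between the viscous J1 and J2 libraries was 3.53-fold for *Ccl2* and 3.51-fold for *Ccl7*, each larger than for 97% of all IDs (percentiles 97.4 and 97.4).

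*Ccl12*, a mouse Ccr2 ligand, was highest in the W1 libraries. It had 3.46 and 4.42 CPM (J1 and J2) in Jak2 V617F cells in elastic gel and 4.25 and 7.66 CPM in viscous gel. In control cells it had 15.5 and 4.67 CPM (W1 and W2) in elastic gel and 22.0 and 2.52 CPM in viscous gel. Both W1 libraries were above the other 6, and W2 lay within or below the Jak2 V617F range. *Ccl8*, which in mice signals through Ccr8, had few counts, above all in Jak2 V617F cells. Its raw counts were 7 and 12 (J1 and J2) in Jak2 V617F cells in elastic gel and 17 and 27 in viscous gel, against 294 and 79 (W1 and W2) in control cells in elastic gel and 421 and 95 in viscous gel. The highest Jak2 V617F count, 27, had an exact Poisson 95% interval of 17.8 to 39.3, and the lowest control count, 79, had 62.6 to 98.5; these intervals cover counting error only. *Ccl8* was the only member, of 10, for which the 4 Jak2 V617F libraries did not overlap the 4 control libraries. Of all IDs, 3.39% had the 4 Jak2 V617F libraries all lower and 3.5% had them all higher.

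*Ccl3* and *Ccl4*, macrophage inflammatory proteins, had like profiles. *Ccl3* stood at 2376 and 2467 CPM (J1 and J2) in Jak2 V617F cells in elastic gel and at 1504 and 2022 CPM in viscous gel. In control cells it stood at 365 and 2473 CPM (W1 and W2) in elastic gel and at 347 and 1437 CPM in viscous gel. The W2 libraries reached the Jak2 V617F levels or came close to them, and the W1 libraries were several-fold below. *Ccl4* had 377 and 385 CPM in Jak2 V617F cells in elastic gel and 195 and 348 CPM in viscous gel, against 61.8 and 362 CPM in control cells in elastic gel and 50.7 and 178 CPM in viscous gel. The count of *Ccl3* over that of *Ccl4* stayed between 5.81 and 8.06 in all 8 libraries, and how far shared reads contribute to this was not tested. *Ccl5*, an attractant of monocytes and T cells, was also lowest in the W1 libraries. It had 1014 and 994 CPM (J1 and J2) in Jak2 V617F cells in elastic gel and 727 and 728 CPM in viscous gel. In control cells it had 190 and 920 CPM (W1 and W2) in elastic gel and 315 and 762 CPM in viscous gel.

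*Ccl6* and *Ccl9* are neighbours on chromosome 11 but had different profiles. *Ccl6* had 871 and 721 CPM (J1 and J2) in Jak2 V617F cells in elastic gel and 753 and 1812 CPM in viscous gel. In control cells it had 4022 and 541 CPM (W1 and W2) in elastic gel and 3285 and 438 CPM in viscous gel. The W1 libraries held the highest and the W2 libraries the lowest values of all 8. *Ccl9* was the most even member, with 1075 and 1009 CPM in Jak2 V617F cells in elastic gel and 799 and 1265 CPM in viscous gel, against 1208 and 850 CPM in control cells in elastic gel and 782 and 640 CPM in viscous gel. *Ccl24* had 156 and 145 CPM in Jak2 V617F cells in elastic gel and 98.6 and 95 CPM in viscous gel. In control cells it had 80.9 and 146 CPM in elastic gel and 65.5 and 83.0 CPM in viscous gel. Within Jak2 V617F cells both elastic libraries were above both viscous ones for *Ccl3*, *Ccl4*, *Ccl5* and *Ccl24* and below them for *Ccl8*. That is 4 of 10 and 1 of 10 members, where 19.1% and 20.6% of all IDs had such an order. Over all 8 libraries the elastic and viscous values of *Ccl24* overlapped, because elastic W1 (80.9 CPM) lay below 3 of the 4 viscous libraries.

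**Figure D2:**
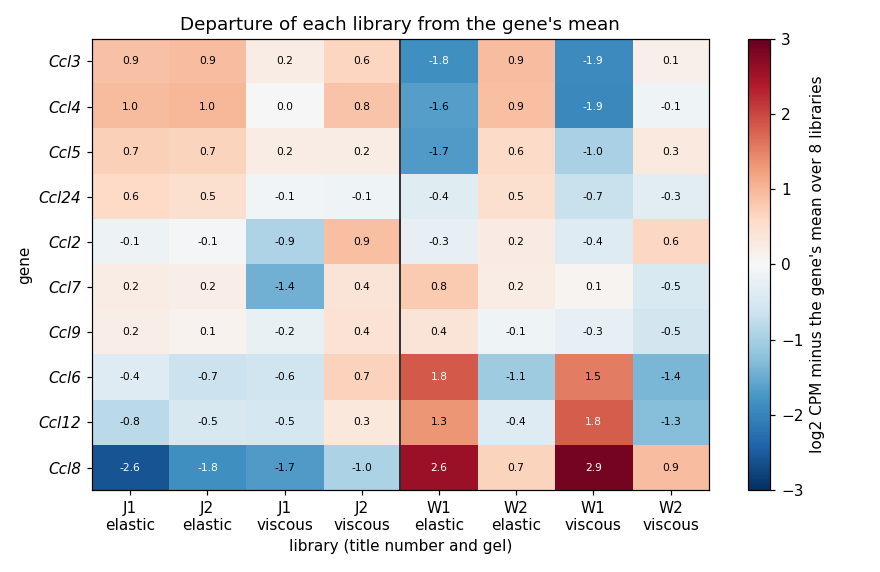
Log2 CPM of each chemokine (rows) in each library (columns) minus the gene's mean over the 8 libraries. In the W1 columns *Ccl3*, *Ccl4* and *Ccl5* are below their means while *Ccl6*, *Ccl12* and *Ccl8* are above them, and the line separates Jak2 V617F from control libraries.

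Jak2 V617F and control cells were compared on counts summed per title number, 2 sums against 2. *Ccl8* had the largest difference of the family. It was 14.5-fold lower in Jak2 V617F cells (log2 fold change −3.86, SE 0.82, 95% interval −6.08 to −1.64), lower in 4 of 4 libraries. The unadjusted p was 0.00773 and the edgeR adjusted p was 0.792. *Ccl8* was therefore not called by edgeR, which called 0% of the 15239 IDs and 0 of the 10 members. At an unadjusted p under 0.05, edgeR gave 1 of the 10 members and 5.22% of all IDs. limma-voom also called 0 members and 0% of IDs, whereas DESeq2 called *Ccl8* (adjusted p = 0.000249) and 0.696% of all IDs. In 3.39% of all IDs the 4 Jak2 V617F libraries were all lower than the 4 control libraries, and in 3.5% they were all higher; among the members these were 1 of 10 and 0 of 10.

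The other 9 members did not pass the edgeR test between genotypes, and each 95% interval included 0. *Ccl4* had a log2 fold change of 0.99 (SE 0.77, 95% interval −1.08 to 3.06), *Ccl3* 0.85 (SE 0.83, −1.38 to 3.07) and *Ccl5* 0.65 (SE 0.59, −0.94 to 2.24), with edgeR adjusted p of 0.819, 0.841 and 0.836. *Ccl12* had −1.16 (SE 0.83, −3.39 to 1.07) and *Ccl6* −0.95 (SE 0.97, −3.56 to 1.65), with edgeR adjusted p of 0.809 and 0.844. *Ccl24* had 0.39 (SE 0.25), *Ccl9* 0.28 (SE 0.23), *Ccl7* −0.22 (SE 0.33) and *Ccl2* 0.0016 (SE 0.47). The median log2 fold change was 0.139 over the 10 members and −0.00493 over all IDs, and 6 members were higher and 4 lower. These values depended on the control number. Without W2, so that W1 alone stood for control cells, edgeR called 7 of 10 members (*Ccl12*, *Ccl8*, *Ccl3*, *Ccl4*, *Ccl5*, *Ccl6* and *Ccl24*) and 16.6% of all IDs (2664 of 16004). In that fit the spread came from the 2 Jak2 V617F sums only, and the lone control sum was assumed to vary like them. Without W1, so that W2 alone stood for control cells, the log2 fold change of *Ccl8* was −2.58. Those of *Ccl3*, *Ccl4* and *Ccl5* were then 0.087, 0.26 and 0.031. The direction turned for *Ccl6* (1.11), *Ccl12* (0.48), *Ccl7* (0.056) and *Ccl2* (−0.33).

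Within each gel the same member led. In elastic gel *Ccl8* averaged 0.291 ± 0.124 CPM in Jak2 V617F cells and 5.98 ± 4.98 CPM in control cells (SD, n = 2 each), 20.4-fold lower (log2 fold change −4.35, SE 0.99, edgeR unadjusted p = 0.00363, adjusted p = 0.937). In viscous gel it averaged 0.594 ± 0.232 CPM in Jak2 V617F cells and 7.21 ± 6.01 CPM in control cells (SD, n = 2 each), 12.1-fold lower (−3.60, SE 0.92, edgeR unadjusted p = 0.00668, adjusted p = 0.664). DESeq2 called it in both gels, with adjusted p of 0.00179 in elastic and 0.0106 in viscous gel. Without the W1 libraries the log2 fold changes were −3.07 in elastic and −2.31 in viscous gel. *Ccl8* was the only member with an unadjusted p under 0.05 in either gel, where 4.42% of all IDs in elastic and 7.31% in viscous gel had such a p. DESeq2 called 0.298% and 0.413% of all IDs, while edgeR and limma-voom called 0% in both gels.

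**Figure D3:**
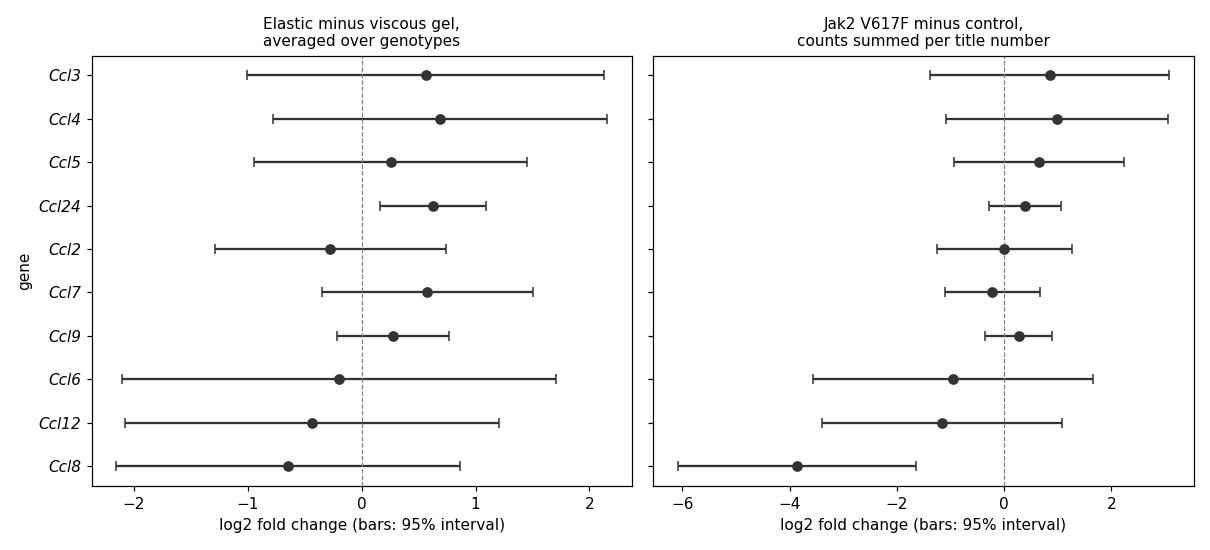
Log2 fold changes of the 10 chemokines from edgeR with 95% intervals, for elastic minus viscous gel averaged over genotypes (left) and Jak2 V617F minus control on summed counts (right). The intervals of *Ccl24* on the left and of *Ccl8* on the right do not include 0, and neither gene passed after adjustment over all IDs.

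Elastic and viscous gel were compared over both genotypes with all 8 libraries in 1 fit. *Ccl24* was higher in elastic gel in all 4 title numbers, by 0.67 (J1), 0.61 (J2), 0.30 (W1) and 0.81 (W2) on the log2 scale. It averaged 151 ± 7.96 CPM in elastic and 96.8 ± 2.59 CPM in viscous gel in Jak2 V617F cells, and 113 ± 45.7 and 74.2 ± 12.3 CPM in control cells (SD, n = 2 each). The averaged difference was 1.54-fold (log2 fold change 0.62, SE 0.19, 95% interval 0.16 to 1.09), with an edgeR unadjusted p of 0.0159 and adjusted p of 0.686. Without the W1 libraries it was 0.73 (SE 0.089, edgeR adjusted p = 0.0955), and without only the W2 library in elastic gel it was 0.38 (edgeR adjusted p = 0.665). edgeR called 0% of the 14785 IDs and 0 of the 10 members, and gave 1 member and 6.28% of IDs an unadjusted p under 0.05. DESeq2 called 0.906% of IDs and limma-voom 0%, with 0 members in either, and the DESeq2 adjusted p of *Ccl24* was 0.186.

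*Ccl3* and *Ccl4* were also higher in elastic gel in all 4 title numbers, and *Ccl8* was lower in all 4. For *Ccl3* the differences in log2 CPM were 0.66 (J1), 0.29 (J2), 0.073 (W1) and 0.78 (W2), and for *Ccl4* they were 0.95, 0.15, 0.29 and 1.02. For *Ccl8* they were −0.90, −0.90, −0.27 and −0.26, with raw counts of 27 or fewer in the Jak2 V617F libraries. Over all IDs, 10.7% were higher in elastic gel in all 4 numbers and 10.8% were lower, and among the members these were 3 of 10 and 1 of 10. The averaged log2 fold changes did not pass the edgeR test: 0.56 (SE 0.65, adjusted p = 0.956) for *Ccl3*, 0.69 (SE 0.61, adjusted p = 0.940) for *Ccl4* and −0.65 (SE 0.63, adjusted p = 0.95) for *Ccl8*. The value of *Ccl8* was −0.0025 without the W1 library in viscous gel and −1.28 without the W1 library in elastic gel. *Ccl5* was higher in elastic gel in J1, J2 and W2 (0.48, 0.45 and 0.27) and lower in W1 (−0.73). Without the W1 libraries *Ccl3*, *Ccl4* and *Ccl5* had log2 fold changes of 0.62, 0.76 and 0.37, with edgeR adjusted p of 0.319, 0.370 and 0.353. Without only the W2 library in elastic gel they turned to −0.41, −0.20 and −0.52.

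The averaged gel differences of the Ccr2 ligands *Ccl2*, *Ccl7* and *Ccl12* did not all have the same sign. Each 95% interval included 0, so neither a shared nor a differing direction is shown. *Ccl7* was higher in elastic gel in J1 (1.64), W1 (0.69) and W2 (0.69) and lower in J2 (−0.18), and its averaged log2 fold change was 0.58 (SE 0.39, 95% interval −0.35 to 1.5, edgeR adjusted p = 0.914). Without the J1 library in viscous gel it was 0.26, and without the J2 library in viscous gel it was 1.16. *Ccl2* was higher in J1 (0.77) and W1 (0.13) and lower in J2 (−0.96) and W2 (−0.37), averaging −0.28 (SE 0.42, −1.29 to 0.74, edgeR adjusted p = 0.971). The count of *Ccl2* over that of *Ccl7* was lower in elastic than in viscous gel in each number: 2.98 and 5.45 in J1, 3.19 and 5.48 in J2, 1.87 and 2.76 in W1, and 3.85 and 8.03 in W2. This ratio was chosen after its values were seen and was not tested. *Ccl12* averaged −0.44 (SE 0.69), *Ccl6* −0.20 (SE 0.80), *Ccl9* 0.27 (SE 0.21) and *Ccl5* 0.25 (SE 0.50), with edgeR adjusted p of 0.923 to 0.991. For all 10 members the 4 elastic libraries overlapped the 4 viscous ones. Of all IDs, 2.07% had the 4 elastic libraries all higher and 1.66% had them all lower. The median over the 10 members was 0.264, against −0.00427 over all IDs.

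In each genotype alone, 0 of 10 members were called by edgeR, DESeq2 or limma-voom for elastic against viscous gel, and 0 had an unadjusted edgeR p under 0.05. In Jak2 V617F cells that p was met by 3.08% of all IDs and DESeq2 called 0.237%; in control cells the shares were 4.85% and 0.237%; edgeR and limma-voom called 0% in both. *Ccl24* had log2 fold changes of 0.64 (SE 0.27) in Jak2 V617F and 0.61 (SE 0.27) in control cells. The difference of these effects was 0.031 (95% interval −0.89 to 0.96, edgeR adjusted p = 1), an interval that spans nearly 1 log2 unit either way. For the difference of gel effects between genotypes, 0 of 10 members were called by any of the 3 tools or had an unadjusted p under 0.05. Over all IDs edgeR and limma-voom called 0%, DESeq2 called 0.0135%, and 1.72% had an unadjusted edgeR p under 0.05. The 95% intervals of all 10 members included 0.

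**Figure D4:**
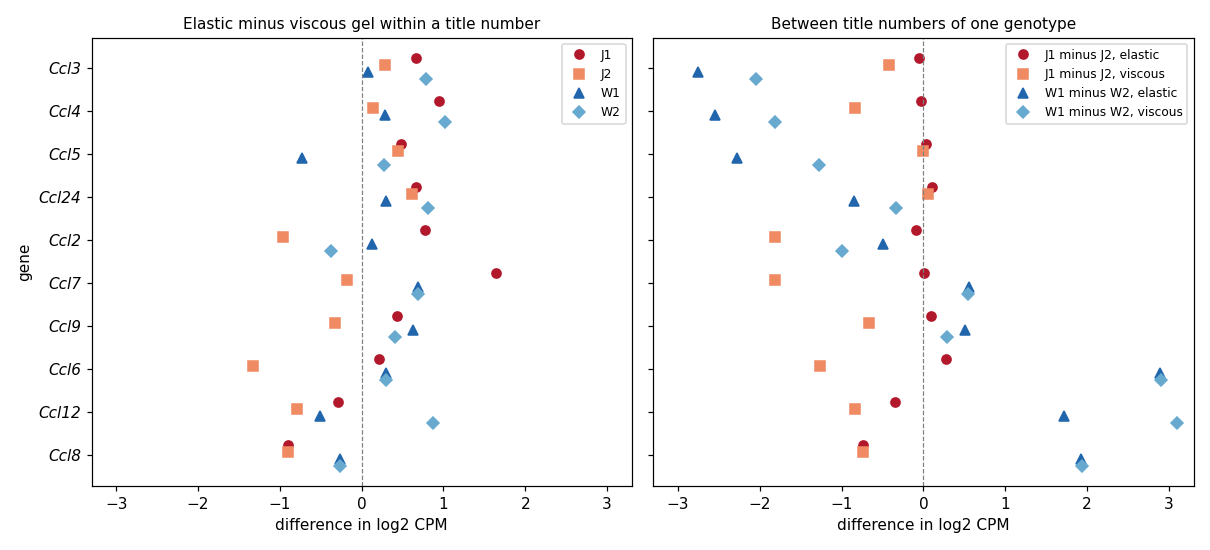
Differences in log2 CPM of each chemokine: elastic minus viscous gel within each title number (left), and between the 2 title numbers of a genotype within each gel (right). On the right the W1 minus W2 points lie between −2.76 and −1.81 for *Ccl3* and *Ccl4* and at 2.89 and 2.91 for *Ccl6*, whereas the J1 minus J2 points in elastic gel lie near 0 for most members.

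The title numbers of control cells differed widely in these genes, and for all 10 members the difference had the same sign in both gels, as it had in 70.7% of all IDs. *Ccl3* was lower in W1 than in W2 by 6.77-fold in elastic and 4.14-fold in viscous gel, *Ccl4* by 5.85-fold and 3.52-fold, and *Ccl5* by 4.84-fold and 2.42-fold. *Ccl6* was higher in W1 by 7.44-fold and 7.50-fold, *Ccl8* by 3.79-fold and 3.82-fold, and *Ccl12* by 3.28-fold and 8.54-fold. The count of *Ccl6* over that of *Ccl3* was 11.02 and 9.46 in the W1 libraries in elastic and viscous gel, and between 0.219 and 0.896 in the other 6 libraries. The difference was over 2-fold for 6 of 10 members in each gel, against 17.6% of all IDs in elastic and 17.2% in viscous gel. In size it fell in the top 10% of all IDs for 6 members in elastic and 5 in viscous gel. The median absolute difference over members was 1.82 log2 units in elastic and 1.54 in viscous gel, against 0.347 and 0.350 over all IDs. These are single pairs of libraries, so no test was made, and what distinguishes W1 from W2 is not given in the labels.

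Replicates of Jak2 V617F cells in elastic gel were close for these genes, with a median absolute difference of 0.0884 log2 units over members and 0.145 over all IDs. In viscous gel it was 0.787 over members and 0.232 over all IDs. In size the difference between the viscous J1 and J2 libraries lay in the top 10% of all IDs for 3 of 10 members. These were *Ccl2*, *Ccl7* and *Ccl6* (2.41-fold, percentile 94.3), each lower in J1 than in J2. For *Ccl24* these libraries differed by 1.04-fold, and for *Ccl5* they held 727 and 728 CPM.

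Likeness of profiles was measured as the root mean square difference between centred log2 CPM over the 8 libraries. *Ccl3* was the nearest of 14784 other IDs to *Ccl4* (0.158 log2 units), and *Ccl4* was number 2 from *Ccl3*, after the ID ENSMUSG00000020205 (0.130). *Ccl12* was number 2 from *Ccl6* (0.382), although these genes lie in different groups on chromosome 11. *Ccl9*, which lies next to *Ccl6*, was nearest to *Ccl24* among the members (0.470). Among all 14784 other IDs, however, *Ccl24* was number 8720 from *Ccl9*, so this was not a close likeness. The ID most like *Ccl2* outside the family was ENSMUSG00000033917 (0.200) and that most like *Ccl24* was ENSMUSG00000018476 (0.0772). These 8 libraries share their title numbers in pairs, and the distances are descriptions, from which nothing is read about shared control.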

How the data were processed

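The authors deposited raw integer counts by Ensembl ID in 1 table of all libraries and in 8 files of 1 library each, and all 8 held the table's values. The tools Salmon and DESeq2 and the build GRCm38 are named in the submitters' processing notes; versions, filters and strand are not given in the sources used here. Members and gene lists were chosen with earlier results of these data known. Symbols of the 10 IDs come from the definition of the family. The RefSeq table (49997 genes) held 0 Ensembl IDs, so 5 further gene lists (receptors, other CC chemokines, NF-kB regulators, IL-4 response, cytokines), the cell type markers and a promoter motif search were not run, and no sequences are shown.

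Counts were fitted with edgeR 4.0.16 (R 4.3.3; quasi-likelihood test, TMM scaling, filterByExpr by group) across all IDs, with 4 group means over the 8 libraries, or 2 over the sums per title number (15239 IDs). p-values are two-sided with Benjamini-Hochberg adjustment, and a gene was called at an adjusted p under 0.05. Standard errors were derived from the test statistic. CPM use TMM-scaled totals in units of 1e+06 counts, and log2 CPM a prior count of 2. Levels of different genes were not compared, since no transcript lengths were used. Alternatives were DESeq2 1.42.0 (undefined adjusted p counted as not called), limma-voom (limma 3.58.1), 2 scalings, 2 filters (no filter, or at least 50 counts in 2 or more libraries), libraries left out and a replicate block. Fits were checked on simulated data. All 10 members are named. Fold changes are given for all of them in the averaged gel and the summed genotype comparison, and elsewhere for those with an unadjusted p under 0.05. *Ccl24* in each genotype, and the split of *Ccl2* and *Ccl7* between viscous libraries, were singled out after their values were seen. Figures used matplotlib 3.10.9.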

Additional observations from a re-analysis of the deposited data

How the results depend on the processing

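Under the other scalings and filters edgeR called at most 1 of all IDs in any comparison, so 0 members is not particular to these genes. Of 109 alternative counts of members called, 105 were the same as the 0 given in the report. The others were 1 (*Ccl8*) by DESeq2 for genotype in elastic gel, 1 in viscous gel and 1 on summed counts, and 7 on summed counts without W2 (0 to 7 over the 4 sums left out in turn). Of 302 alternative fold changes, 21 reversed, in 10 of 22 values, and the cause was not tested. With 1 library left out, the averaged gel effect ranged from −0.59 to 0.32 for *Ccl2*, −0.99 to 0.70 for *Ccl12*, −1.23 to 0.85 for *Ccl6*, −0.41 to 1.25 for *Ccl3*, −0.20 to 1.28 for *Ccl4* −0.52 to 0.64 for *Ccl5*, −1.28 to −0.0025 for *Ccl8* and 0.26 to 1.16 for *Ccl7*; without both W1 libraries *Ccl12* was 0.15. With 1 sum left out, the genotype effect ranged from −0.60 to 0.45 for *Ccl2*, −0.63 to 0.099 for *Ccl7*, −1.90 to 0.48 for *Ccl12* and −1.76 to 1.11 for *Ccl6*. For *Ccl2*, whose genotype effect was near 0, it was −0.0025 with DESeq2 size factors and by DESeq2, −0.0080 with the stricter filter, −0.033 by limma-voom and −0.025 averaged over the 8 libraries. *Ccl8* on summed counts kept its direction in all 11 alternatives (−4.53 to −2.58, adjusted p from 0.000249 to 1), as did the averaged gel effect of *Ccl24* in all 16 (0.38 to 0.81, adjusted p from 0.0955 to 1). Under the other scalings 76 of 80 group means moved by less than 1 SD. That SD comes from 2 libraries and can be as large as the mean, as for *Ccl3* in control cells in elastic gel (1419 ± 1490 CPM). The other 4 were small shifts where replicates were close. *Ccl7* in Jak2 V617F cells in elastic gel went from 379 to 381 CPM under both scalings. *Ccl5* in these cells in viscous gel went from 727.4 to 726.2 and 727.9 CPM.

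With the title number as a fixed replicate block, edgeR called 0 of 10 members in each of the 4 gel comparisons. Of all 14785 IDs it called 5 in the averaged comparison and 0 in each of the others. *Ccl24* had 0.60 (edgeR adjusted p = 0.147), *Ccl4* 0.60 (0.313), *Ccl3* 0.45 (0.401) and *Ccl8* −0.65 (0.309). Deviations from group means correlated at −0.0894 between the libraries of a number in Jak2 V617F and at 0.532 in control cells over all IDs. The labels do not say what the number marks, and it was used as a block only in this alternative. In the main gel fits the difference between W1 and W2 therefore stayed in the spread. *Ccl8* had low counts in Jak2 V617F cells (7 to 27). In control cells it differed between W1 and W2 by 3.79-fold in elastic and 3.82-fold in viscous gel. How much each adds to the uncertainty of its fold change was not tested.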
